A study of Homo sapiens with 10 samples.

Results

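The oxidized libraries of 2 RibOxi-seq experiments on PA1 cells, a line derived from a human ovarian teratoma, were compared for how their counts were divided among the annotated 2′-O-methylation sites of rRNA. The NextSeq gave 3 oxidized libraries (replicates 1 and 2 from cells at passage 6, replicate 3 from passage 4), and these were set against the 2 oxidized MiSeq libraries of a pilot (both from passage 7). The series held 10 libraries in all, and the other 5 were nonoxidized controls, 3 on the NextSeq and 2 on the MiSeq, used here for the background. All of them came from total RNA of the same line, cut with Benzonase, and the pilot started from a smaller quantity of RNA. Sequencer, passage and amount of RNA differed together between the experiments, so they cannot be told apart. The labels do not say which libraries came from separate cultures, and p-values therefore measure only the spread between these libraries, which may be technical.

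The members were the 106 sites that the study lists as already known, 40 in 18S and 66 in 28S, of 6939 positions counted (18S 1 to 1869, 28S 0 to 5069). They were taken by position alone, with no use of their counts. For each library, a site's share is its count as a percentage of the counts summed over the 106 sites. Every site entered the fit, and 100 of the 106 had a count in all 5 oxidized libraries. The listed base was the GRCh37 base at 104 of them. The exceptions, written as listed base, 28S position and reference base, were A3719G and G4043U.

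Most 2′-O-methyl groups of rRNA are placed by fibrillarin within small ribonucleoproteins, whose box C/D snoRNA pairs with the rRNA and sets the methyl group on the base that lies opposite the fifth base before its D or D′ box. Periodate alters only those 3′-ends whose 2′ and 3′ hydroxyls are both free, and such ends then take no linker. An end that carries this methyl group escapes. In an oxidized library, fragment 3′-ends therefore gather at methylated bases. The base that follows the site is the one removed by β-elimination before the final oxidation.

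The windows below show the rRNA around 28S sites on which the comparison turned. Each runs from 20 bases before the site to 5 bases after it, on the plus strand of the GRCh37 contig chrUn_gl000220, with every known site in capitals. The named site is the base 5 before the last. A fragment counted at the site ends on that base, so the 5 bases after it are not in the fragment.
28S U2414, at 115742-115767: aaguggAgaaggguuccaugUgaaca
28S A3829, at 117157-117182: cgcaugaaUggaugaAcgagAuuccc
28S G3791, at 117119-117144: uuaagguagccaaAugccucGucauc
28S U3924, at 117252-117277: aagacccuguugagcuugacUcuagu
28S G4636, at 117964-117989: gGuUcaGacauuugguguauGugcuu
28S C2421, at 115749-115774: gaaggguuccaugUgaacagCaGuug
28S G1521, at 114849-114874: gagcgcacguguuaggacccGaAaga
28S U4226, at 117554-117579: cugucaaacgguaacgcaggUGuccu
The windows of U2414 and C2421 overlap, because these sites lie 7 bases apart.

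Stretches of guides for leading sites of the MiSeq experiment are given with the base that faces the site in capitals and the box, where the annotated gene matched, as the last 4 bases.
SNORD15A for 28S G3791: gaugaCgagucuga
SNORD15A for 28S A3784: gaggcaUuugucuga
SNORD121A for 28S G4636: ccaagcaCauaucuga
SNORD52 for 28S U3924: cagacuagAgucuccga
SNORD15A and SNORD121A carried CUGA 5 bases after the facing base, and SNORD52 carried CCGA there. SNORD15A (chromosome 11:75111435-75111582, plus strand, within RPS3) had a separate stretch for each of its sites, G3791 and A3784. SNORD121A lies at chromosome 9:33952767-33952848 on the minus strand within UBAP2, and SNORD52 at chromosome 6:31804853-31804919 on the plus strand within SNHG32.

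Total counts of the oxidized NextSeq libraries were 13237673, 12293410 and 13694386, and those of the MiSeq libraries were 1568883 and 1353768. Low counts gathered at steps of 50, so a count is not a read, and 3 steps (150 counts) were taken as the floor. That floor corresponded to shares of 0.00115% to 0.00129% in a NextSeq library and of 0.0162% and 0.0187% in the MiSeq libraries. Floors cover counting error only. The known sites held 95.2%, 94.8% and 95.0% of all counts in the NextSeq libraries, against 59.2% and 59.3% in the MiSeq libraries (94.99% ± 0.199, SD, n = 3, against 59.24% ± 0.0555, n = 2). These ranges did not overlap, but 3 against 2 libraries allow no two-sided exact permutation p under 0.2, which is the p of this and of every other single value below. In the controls, the same sites held 0.359%, 0.385% and 0.732% of the NextSeq counts and 0.173% of the counts in each MiSeq library.

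The replicates were checked before they were averaged. In units of 50 counts, NextSeq replicates 2 and 3 differed by little more than counting noise (a chi-square of 1.15 for each degree of freedom over 511 positions), although they came from different passages. Replicate 1 stood apart from both (11.6 and 11.1). Its share was the lowest of the 3 at 74 of the 106 sites and the highest at 14. The MiSeq replicates differed by about as much as counting noise gives (1.05 over 742 positions). As they were the only pair in their group and the labels call them separate samples, each was kept. With NextSeq replicates 2 and 3 averaged to 1 value, edgeR called 16 known sites higher in NextSeq and 48 higher in MiSeq. With the MiSeq pair also averaged, so that its lone value is taken to vary like the NextSeq values, no site was called by edgeR (62 of 106 had an unadjusted p under 0.05, and the smallest adjusted p over all positions was 0.13).

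Within an experiment, the libraries ranked the sites almost alike, and between experiments they did not. Spearman's rho over the 106 sites was 0.990 to 0.998 among the NextSeq libraries, 0.991 between the MiSeq libraries, and 0.719 to 0.737 between the experiments. This is a description over sites that share a library. The part of the counts placed on the same sites was 92.0% to 98.7% within the NextSeq experiment, 96.6% within the MiSeq experiment, and 40.1% to 44.1% between them.

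**Figure D1:**
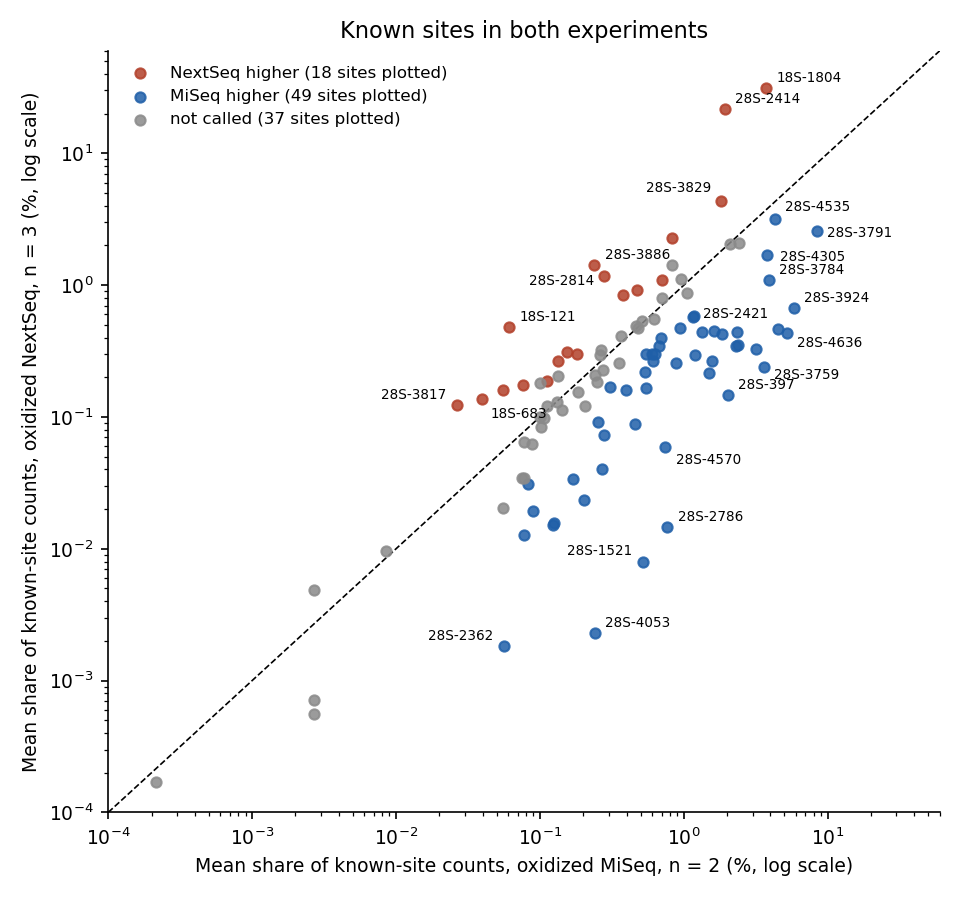
Mean share of the known-site counts per site in the oxidized MiSeq libraries (x axis, %, log scale, n = 2) and in the oxidized NextSeq libraries (y axis, %, log scale, n = 3), with the line of equal shares dashed and the colour giving the call at an adjusted p under 0.05. The 2 points at the top right are 18S U1804 and 28S U2414, far above the line, and 28S C4053 (0.00231% against 0.241%) lies farthest below it. 28S U4226 and 28S G4043 are left out, as one experiment had 0 counts there.

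A pair of uridines took most of the NextSeq signal. 18S U1804, whose listed guide is U20, held 30.7%, 31.7% and 31.2% of the known-site counts in the NextSeq libraries and 3.74% and 3.71% in the MiSeq libraries. 28S U2414, whose listed guides are ZL5/6 and SNORD143/144, held 25.8%, 19.3% and 19.6% against 1.91% and 1.93%. At both sites every NextSeq library lay above both MiSeq libraries. U1804 was 8.37-fold higher in mean share (log2 difference 3.06 ± 0.02, SE; edgeR quasi-likelihood test, adjusted p = 4.55e-08) and U2414 was 11.2-fold higher (3.49 ± 0.15, adjusted p = 0.000106). Together they made up 52.7% ± 3.26 (SD, n = 3) of the NextSeq counts at known sites and 5.65% ± 0.00601 (n = 2) of the MiSeq counts. Both kept this direction under all 6 other scalings tried.

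Signal was spread over many more sites in the pilot. In each NextSeq library, 2 sites reached 50% of the counts at known sites, whereas each MiSeq library needed 12. To reach 90%, the NextSeq libraries needed 34, 38 and 38 sites, and the MiSeq libraries 48 and 47. The effective number of sites, the inverse of the summed squared shares, was 5.97, 6.90 and 6.99 in the NextSeq libraries and 32.6 and 33.0 in the MiSeq libraries. The 10 sites with the highest mean share over both experiments held 67.2% ± 2.64 (SD, n = 3) against 43.4% ± 0.374 (n = 2). Among the 104 sites left once U1804 and U2414 were set aside, the highest 10 no longer held more in the NextSeq libraries (difference of 5.31 percentage points the other way).

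**Figure D2:**
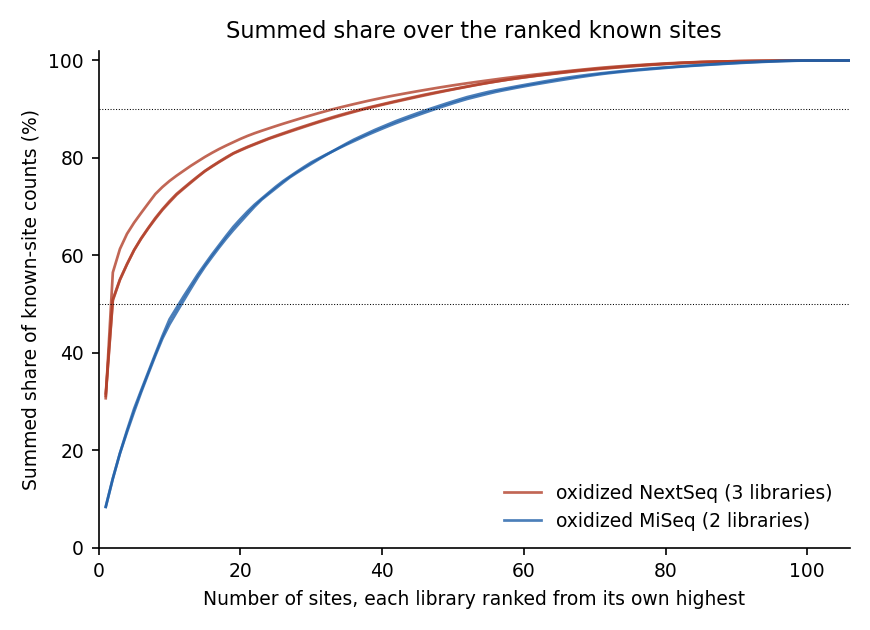
Summed share of the known-site counts (y axis, %) over the sites of each library, ranked from that library's own highest site (x axis, number of sites), with 1 line per library and dotted lines at 50% and 90%. The 3 NextSeq lines pass 50% at the second site and the 2 MiSeq lines at the twelfth.

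Of the 10 sites with the highest mean share, 3 were higher in the NextSeq libraries and kept this direction under every scaling tried, whereas 7 were higher in the MiSeq libraries and turned under TMM and RLE, the scalings described below. The third NextSeq site was 28S A3829, guided by U79, with 4.81%, 4.10% and 4.21% in the NextSeq libraries and 1.91% and 1.73% in the MiSeq libraries, a 2.41-fold higher mean (log2 difference 1.27 ± 0.09, SE, edgeR adjusted p = 0.000764, but 0.141 by DESeq2's Wald test). The highest MiSeq site was 28S G3791, guided by SNORD15A, with 8.37% and 8.46% there and 1.95%, 2.90% and 2.89% in the NextSeq libraries. G3791 ranked 1 in the MiSeq libraries and 5 in the NextSeq libraries.
The other snoRNA U15 site, 28S A3784 (guides U15A/B), had 3.75% and 4.02% in the MiSeq libraries against 0.835%, 1.21% and 1.23%. These U15 sites were 3.26-fold (G3791) and 3.56-fold (A3784) higher in the MiSeq libraries, and at both of them NextSeq replicate 1 was the lowest library.

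A wider gap separated 28S U3924, 28S G4636 and 28S C2421. U3924, guided by U52, was second in the MiSeq libraries with 5.79% and 5.82%, and twentieth in the NextSeq libraries with 0.677%, 0.648% and 0.677% (log2 difference -3.12 ± 0.05, SE, adjusted p = 1.98e-06). G4636, guided by SNORD121A/B, held 5.25% and 5.08% against 0.418%, 0.445% and 0.447% (-3.57 ± 0.06, adjusted p = 1.98e-06). C2421, guided by mgh28S-2409, held 4.68% and 4.39% against 0.503%, 0.428% and 0.467% (-3.28 ± 0.09, adjusted p = 1.71e-05). The MiSeq means were 8.70-fold, 11.8-fold and 9.73-fold higher at these sites, with no overlap between libraries. All 3 turned to higher in NextSeq under TMM and RLE scaling.
28S U4305, guided by U41, had 1.44%, 1.84% and 1.80% in the NextSeq libraries against 3.79% and 3.78%. 28S C4535, guided by U35A/B, was the closest of the 10 with 3.12%, 3.14% and 3.21% against 4.43% and 4.17% (MiSeq 1.36-fold higher, adjusted p = 0.00222). The direction at C4535 turned under 5 of the 6 other scalings, so no direction is drawn for it.

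**Figure D3:**
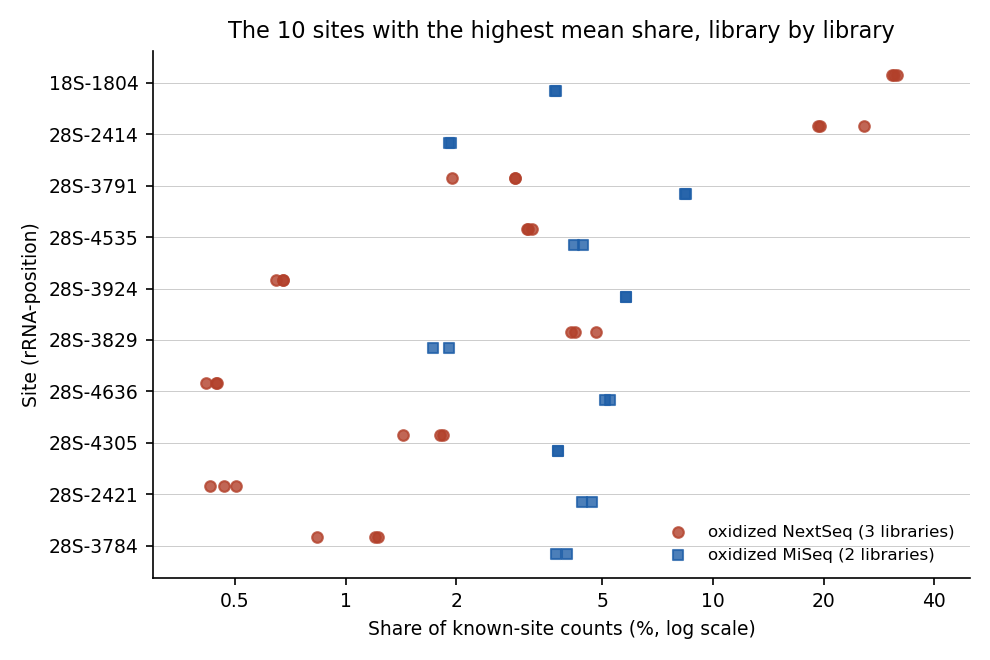
Share of the known-site counts (x axis, %, log scale) in each oxidized library at the 10 sites with the highest mean share (y axis, rRNA and position), with circles for the 3 NextSeq and squares for the 2 MiSeq libraries. At each of the 10 sites the circles and squares do not overlap, and the order of the experiments differs between sites, with U1804 at 31.2% against 3.73% and G4636 at 0.437% against 5.17% (means).

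Over all 106 sites, 19 were called higher in the NextSeq libraries and 49 higher in the MiSeq libraries at an adjusted p under 0.05, which is 17.9% and 46.2% of them. Over all 5147 positions tested, 0.583% were called higher in the NextSeq libraries and 22.8% higher in the MiSeq libraries. The shares of libraries did not overlap at 23 sites with NextSeq higher and at 60 with MiSeq higher. These are 21.7% and 56.6% of the known sites, against 9.58% and 45.1% of all positions tested. The median log2 difference was -0.83 over the known sites and -3.22 over all positions.

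The split between higher and lower depends on what the counts are divided by. U1804 and U2414 enter the divisor of every share, but they make up only a part of this dependence. Without U1804 and U2414 in the denominator, 42 known sites were called higher in NextSeq and 32 higher in MiSeq, and the median moved to 0.16. Under TMM, which centres on all positions, 93 and 3 were called and the median was 3.36. Under RLE the counts were 90 and 3, and the median was 3.17. Leaving out U1804 and U2414 thus moved the median less than TMM or RLE did. The spacing of sites along the log2 axis does not change with a common divisor, only the place of zero. The same sign in the main comparison and all 6 other scalings was found for 15 of the 19 NextSeq-higher sites and for 4 of the 49 MiSeq-higher sites.

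**Figure D4:**
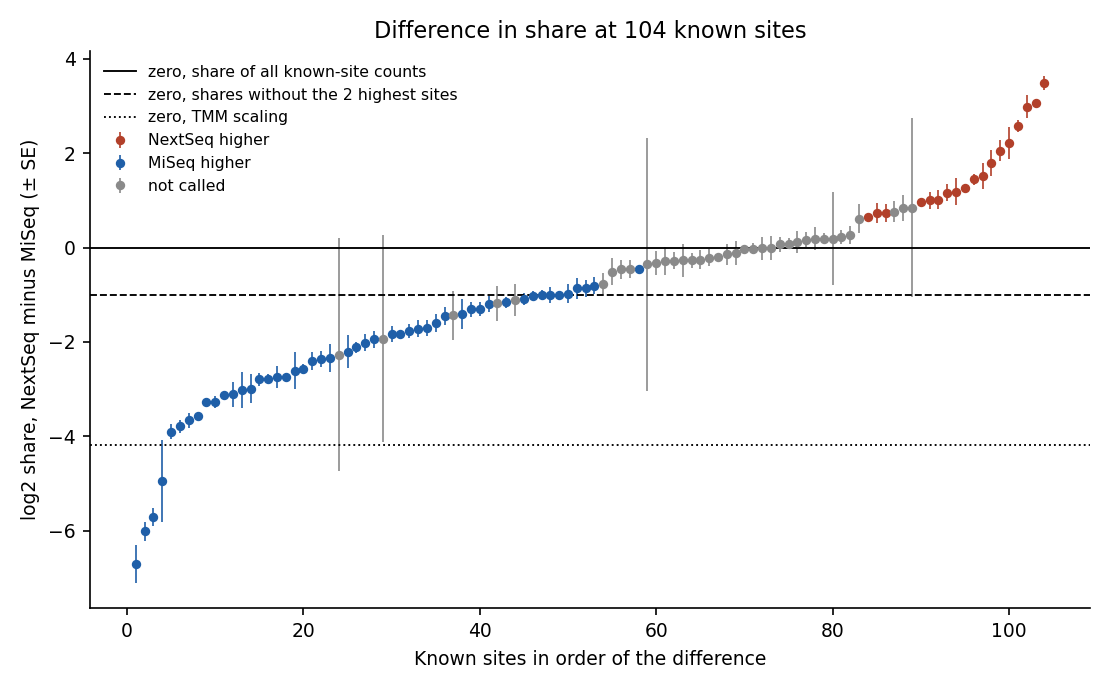
Difference in log2 share between NextSeq and MiSeq (y axis, points with SE) at 104 known sites in order (x axis), coloured by the call at an adjusted p under 0.05. The lines give the place of zero under 3 ways of scaling, and 4 points lie below all of them, 28S A2362, 28S A2786, 28S G1521 and 28S C4053.

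A further 5 of the sites called higher in NextSeq are given next (U4226, at 0 in MiSeq, is described with its neighbour below). 18S U121, with guides mgh18S-121/Z17B, had 0.444%, 0.497% and 0.506% in the NextSeq libraries and 0.0488% and 0.0725% in the MiSeq libraries (7.95-fold higher, log2 difference 2.99 ± 0.24, SE, adjusted p = 0.00115). 28S C3886, guided by U47, had 1.24%, 1.54% and 1.498% against 0.232% and 0.246% (5.98-fold higher, 2.58 ± 0.13, adjusted p = 0.000197). 28S A2814, guided by U95, had 1.09%, 1.25% and 1.16% against 0.348% and 0.214% (4.15-fold higher, adjusted p = 0.00255).
28S U3817, with guides ACA48/HBI-43, went from a MiSeq mean of 0.0265% to a NextSeq mean of 0.124%. 18S G683, guided by HBII-108/B, went from 0.0394% to 0.137%. These MiSeq means lie close to the floor of a library, so their folds (4.67 and 3.47) rest on few steps. Every one of these 5 sites is followed by a G, and each kept its direction under all 6 other scalings, although G683 was no longer called when scaled within the same rRNA (adjusted p = 0.113) and U3817 not without MiSeq replicate 1 (adjusted p = 0.0527, both edgeR).

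At the other end, 4 28S sites were lower in NextSeq under every scaling, although A2362 was no longer called under TMM (log2 difference -0.78, adjusted p = 0.471) or RLE (-0.95, adjusted p = 0.394), nor without NextSeq replicate 2, MiSeq replicate 1 or MiSeq replicate 2 (adjusted p = 0.0570, 0.0703 and 0.0710). C4053, guided by U75, held 0.238% and 0.244% in the MiSeq libraries and 0.00159%, 0.00302% and 0.00231% in the NextSeq libraries (log2 difference -6.71 ± 0.39, SE, adjusted p = 0.000342). G1521, guided by snR39B, held 0.504% and 0.535% against 0.00853%, 0.00798% and 0.0075% (-6.02 ± 0.19, adjusted p = 3.95e-05). A2786, guided by HBII-420, held 0.702% and 0.828% against 0.0130%, 0.0162% and 0.0144% (-5.72 ± 0.19, adjusted p = 4.22e-05). A2362, guided by U76, held 0.0609% and 0.0516% against 0.00046%, 0.00261% and 0.00239%, and its NextSeq replicate 1 was under the floor. The MiSeq means were 64.9-fold higher at G1521 and 52.7-fold higher at A2786. At C4053 the ratio of means was 105, but it rests on 200, 352 and 300 NextSeq counts, only a few steps of 50, and no fold is given for A2362.
28S A3759 (guide U46), 28S A397 (U26) and 28S A4570 (U63) complete the sites with the largest losses. A3759 fell from a mean of 3.59% in the MiSeq libraries to 0.241% in the NextSeq libraries, A397 from 2.02% to 0.146%, and A4570 from 0.744% to 0.0589%. All 3 turned to higher in NextSeq under TMM and RLE.

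Some of the 50 sites of highest mean share had small differences. 28S G3943, guided by HBII-82/B, had 1.92%, 2.12% and 2.11% in the NextSeq libraries and 2.02% and 2.18% in the MiSeq libraries (log2 difference -0.03, 95% interval -0.21 to 0.14). 28S A2400 (HBII-202) had means of 0.473% and 0.481% (-0.02, interval -0.32 to 0.28), and 28S A3723 (U36C) of 0.492% and 0.463% (0.09, interval -0.20 to 0.37). 18S G867 (HBII-419) had a log2 difference of 0.07 (interval -0.31 to 0.44). 18S G1447 (SNORD127) had one of -0.14, with an interval of -0.69 to 0.40 that leaves room for a larger change, and NextSeq replicate 1 (0.397%) lay below the others (0.640% and 0.636%). These 5 sites were chosen for a small difference, and none was called at these shares (adjusted p of 0.553 to 0.870). Relative to the median known site, which stood at -0.83, they lay 0.69 to 0.92 higher.

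Ratios between sites of 1 library are free of any scaling. U1804 gave 15.7, 10.9 and 10.8 counts per count at G3791 in the NextSeq libraries and 0.447 and 0.439 in the MiSeq libraries, a 28.2-fold change of the mean ratio. U1804 and U2414 stayed closer to each other, at 1.19, 1.64 and 1.59 against 1.96 and 1.92. U2414 and C2421, only 7 bases apart, had ratios of 51.4, 45.0 and 42.0 in the NextSeq libraries and 0.408 and 0.440 in the MiSeq libraries, which is a 109-fold change. A fragment that ends at C2421 includes U2414, as the windows above show.

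Neighbouring sites behaved in different ways. C2421 and G2423, guided by mgh28S-2409 and mgh28S-2411, moved together, and the ratio of the first to the second was 1.39, 1.33 and 1.58 in the NextSeq libraries and 1.37 and 1.51 in the MiSeq libraries. In contrast, G1521 was 0.0325, 0.0252 and 0.0234 of A1523 in the NextSeq libraries and 0.945 and 0.796 in the MiSeq libraries, 32.2-fold higher there. For A397 over A399 the ratio was 0.0750, 0.0688 and 0.0646 against 0.867 and 0.806, 12.0-fold higher. 18S U172 over C174 had 0.0815, 0.0969 and 0.0670 against 0.770 and 1.47. The 5′ site of these 3 pairs, each 2 bases apart, held the smaller part in every NextSeq library. Over the 13 pairs at most 3 bases apart, the ratio of the 5′ to the 3′ site was below both MiSeq values in every NextSeq library in 7, and above both in 3. The share over other pairs of sites was not computed. Among the pairs above, U4226 with G4227 and U4497 with G4498 rest on MiSeq counts of 0 and 0 and of 50 and 0 at the 5′ site. Among those below, A2362 over C2364 rests on 58 counts at A2362 in NextSeq replicate 1, under the floor.

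The 2 pairs of directly adjacent sites were U4226 with G4227 and U4497 with G4498, all in 28S. U4226, guided by U58C, had 0.0929%, 0.0939% and 0.0893% in the NextSeq libraries and 0 counts in both MiSeq libraries. Against the floor of 150 counts in each MiSeq library (mean 0.0174%), its NextSeq share was at least 5.28-fold higher (called, adjusted p = 0.000748). G4227 next to it, guided by U58A/B/C, showed no such gap, with means of 0.154% and 0.184% (adjusted p = 0.355). U4497 (SNORD62A/B) stayed at 0.00476%, 0.00515% and 0.00461% in NextSeq, and both MiSeq libraries (0.00538% and 0) were below the floor. G4498, which has the same guides, held 0.277%, 0.302% and 0.320% against 0.657% and 0.611%.
Among the sites of lowest count, 18S U1668 had a mean of 0.000169% in NextSeq and 0.000215% in MiSeq, below the floor in both. 28S C2291 (U48), A3719 (U37) and G4043 (U102) were at or below the floor in every oxidized library of both experiments, so no difference was detectable. At A3719 and G4043 the listed base is not the reference base, as given above. G4043 had 0 counts in each NextSeq library.

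The balance between 18S and 28S rested on U1804. The 40 sites of 18S held 38.4%, 41.5% and 40.8% of the known-site counts in the NextSeq libraries and 19.3% and 19.7% in the MiSeq libraries (40.3% ± 1.62, SD, n = 3, against 19.5% ± 0.303, n = 2). Leaving out NextSeq replicate 1 moved the difference from 20.7 to 21.7 percentage points. Without U1804, however, 18S held 11.2%, 14.4% and 14.0% in NextSeq and 16.2% and 16.6% in MiSeq, so the order turned. Without both U1804 and U2414, it held 19.1% ± 1.20 (SD, n = 3) against 16.7% ± 0.342 (n = 2). Of the 18S sites, 7 were called higher in NextSeq and 14 higher in MiSeq of 40 (median log2 difference -0.41). Of the 28S sites, 12 and 35 of 66 were called (median -1.01).

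**Figure D5:**
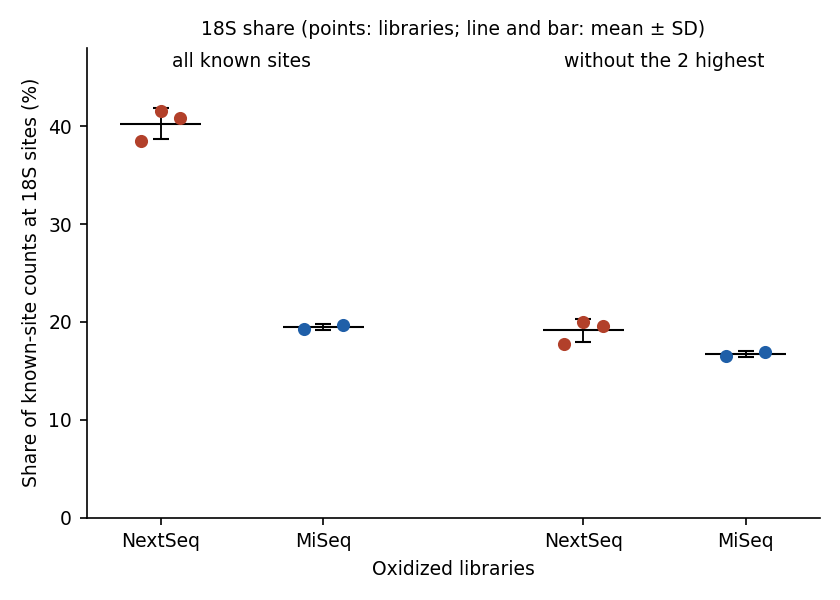
Share of the known-site counts at the 18S sites (y axis, %) in each oxidized library (points), with the mean (line) and SD (bar) of the 3 NextSeq and 2 MiSeq libraries, for all known sites and without U1804 and U2414. The means of 40.3% and 19.5% become 19.1% and 16.7% once these sites are left out.

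The medians of the sites ranged more widely by the base after the site, the one that β-elimination removes, than by the methylated base. Of the 41 sites followed by G, 13 were called higher in NextSeq and 11 higher in MiSeq, with a median log2 difference of -0.02. Of the 17 followed by A, 1 and 12 were called (median -1.77), of the 29 followed by U, 3 and 16 (median -1.30), and of the 19 followed by C, 2 and 10 (median -0.81). Sites before G thus had a median 1.75 above that of sites before A, a spacing that a common divisor does not move. Sites before G held 69.0% ± 2.33 (SD, n = 3) of the NextSeq counts and 23.9% ± 0.161 (n = 2) of the MiSeq counts. U1804 and U2414 are among them. Without these, the sites before G still held 34.9%, 34.3% and 34.1% against 19.5% and 19.2%. In the nonoxidized controls, which skipped β-elimination in the study's protocol, sites before G also held more in NextSeq. With U1804 and U2414 included, they held 57.4%, 57.9% and 36.8% of the known-site counts there, against 22.06% and 24.04% in MiSeq. Whether β-elimination has a part in the difference at sites before G was not tested.
By the methylated base itself, the medians ran from -0.31 at U (20 sites) and -0.64 at A (32) to -0.93 at G (30) and -1.21 at C (24). The uridines held 58.0% ± 2.84 against 20.5% ± 0.0199, and without U1804 and U2414 they held 11.1%, 11.3% and 11.3% against 15.8% and 15.7%, so this order turned. Sites with another known site within 20 bases downstream had a lower median (-1.01, 59 sites) than those without one (-0.27, 47 sites). The GC content of the 20 bases before the site followed the difference only weakly (Spearman's rho -0.13 over 106 sites, a description). Members of a class are not replicates, and no test was made between classes.

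In the control libraries, which hold ends of all kinds, few counts lay at the known sites. The median count at a known site was 358, 460 and 2437 in NextSeq control replicates 1, 2 and 3 and 102 and 54 in the MiSeq controls. Control replicate 3 (passage 4) stood apart from the other NextSeq controls. At U2414 the NextSeq controls had 65515, 80228 and 6707 counts, and the MiSeq controls 2150 and 1309, which is 25.2%, 25.7%, 1.21%, 2.83% and 2.49% of each control library's known-site counts. At U1804 these shares were 5.95%, 6.47% and 1.63% in NextSeq and 1.15% and 1.56% in MiSeq. Among the oxidized NextSeq libraries, by contrast, it was replicate 1 that stood apart at U2414, and none did at U1804. How far ends in the surrounding sequence moved with the difference was looked at over the 10 positions on each side: the NextSeq to MiSeq log2 ratio of the control counts there had a Spearman's rho of 0.16 with the oxidized log2 difference over the 106 sites. The part of fragmentation in the differences was not tested otherwise.

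Of the counts outside the known sites, a larger part lay close to a site in NextSeq. The remaining counts were a far smaller part of all counts there, as the known sites held 94.8% to 95.2% against 59.2% and 59.3% in MiSeq. Positions within 2 bases of a known site, 5.61% of all other positions, held 38.3%, 40.9% and 40.3% of the remaining NextSeq counts and 15.0% and 15.1% of the remaining MiSeq counts. As a part of all counts, however, these positions held less in NextSeq than in MiSeq. Among the highest of these positions in NextSeq were 18S U1803 and C1802, 1 and 2 bases before U1804, with means of 0.140% and 0.131% of all counts in NextSeq and 0.0380% and 0.0273% in MiSeq. 28S A3717, 2 bases before the listed site A3719, was the highest of them, with 0.324%, 0.395% and 0.391% in NextSeq and 0.162% and 0.198% in MiSeq, whereas A3719 itself was below the floor in all 5 libraries. Without A3717, the positions within 2 bases held 33.8%, 36.0% and 35.3% of the remaining NextSeq counts and 14.7% in both MiSeq libraries. 28S U3789, 2 bases before G3791, had a mean of 0.126% against 0.0308%.
In MiSeq the highest other position was 18S A904, with a mean of 0.996% of all counts in MiSeq against 0.167%, 0.197% and 0.187% in NextSeq. It lies 37 bases from the nearest known site. 28S U30 had 0.469% and 0.507% against a NextSeq mean of 0.00254%, 28S C40 a mean of 0.335% against 0.00249%, and 28S A4552 a mean of 0.323% against 0.00441%. 28S C2737 had 0.185% and 0.348% in MiSeq, with 0, 100 and 50 counts in the NextSeq libraries, all below the floor. At A904, U30, C40, A4552 and C2737, each higher in MiSeq (adjusted p of 1.71e-05 to 0.0139), A904 turned to higher in NextSeq under TMM and RLE, and C2737 was no longer called under them (adjusted p = 0.0694 and 0.0614), nor without any one library other than NextSeq replicate 1 (0.0710 to 0.0903). The control libraries had 6094, 6424 and 50876 counts at A904 in NextSeq and 8525 and 4536 in MiSeq.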

How the data were processed

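The authors deposited, for each library, counts of sense alignments by the position of their 3′-end in 18S and 28S, without normalization. Before that they trimmed reads (cutadapt 1.12), collapsed PCR duplicates by a 6-base randomer, aligned to hg19 (GRCh37) with TopHat2 2.1.1, sorted alignments with SAMtools 0.1.19 and converted them with BEDtools, per the study's methods and the submitters' processing notes. Entries without an rRNA position (0 counts in every library) were dropped. The deposited tables of DESeq2 comparisons (fold changes and p-values) and of called positions were not used.

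Shares were tested with edgeR 4.0.16 in R 4.3.3 (quasi-likelihood test, library size set to the summed known-site counts, no normalization factors, positions with at least 1 count in any oxidized library, Benjamini-Hochberg adjustment over 5147 positions). Single values per library were compared by two-sided exact permutation tests (scipy 1.17.1). Data were also simulated from the mean shares of all positions and scaled by total counts, unlike the real fit, with only a few positions changed. Among 5075 positions, at a dispersion of 0.1, 13.4% of 2-fold, 91% of 4-fold and 100% of 8-fold changes were recovered. At a dispersion of 0.01 (5079 positions), 100% of each were, and at 0.5 (5039 positions), 0%, 0% and 4.5%. The common dispersion fitted over all real positions was 2.30.

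Known sites, classes and lists were chosen with earlier results of these data known. The named sites were the 10 of highest mean share, the 8 largest called and nonoverlapping differences each way, the 5 smallest differences among the 50 highest shares, sites the study's list marks as not detected, adjacent pairs, and the 5 highest other positions of each experiment. Other sites in close pairs were named after their values were seen. Alternatives were other scalings, filters, tests and thresholds, steps of 50, neighbouring positions summed, the replicate number as a block, and each library left out. Leaving the 2 highest sites out and averaging similar replicates were chosen after seeing the data. The rRNA and snoRNA sequences were read from GRCh37 with GENCODE v44lift37 genes, and a guide stretch needed at least 9 Watson-Crick pairs in a row at the site. The sequence around 18S U1804 is not reported here.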

Additional observations from a re-analysis of the deposited data

Results flagged for a closer look

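At 5 of the named 28S sites the order of NextSeq and MiSeq in the control libraries was opposite to that in the oxidized libraries, with no overlap between the libraries of either kind. The difference between the contrasts was not tested. A floor of 150 counts is 0.197% and 0.286% of the known-site counts in the MiSeq controls. Of the 5 named sites, A3829 had control counts far above that floor in every library. It was higher in oxidized NextSeq by 1.27 (4.38% against 1.82%) and lower in control NextSeq, at 1.08% against 5.75%. At the other 4 sites the MiSeq control counts were at or near 0, so their control shares carry little weight. A397 had an oxidized log2 difference of -3.79 (0.146% in NextSeq and 2.02% in MiSeq), with control shares of 1.15% and 0.0844% and MiSeq control counts of 56 and 50. For G3791 the oxidized value was -1.71 (2.58% against 8.42%), with control shares of 5.59% and 0.0999% and MiSeq control counts of 152 and 0. G4498 (-1.08, 0.2996% against 0.634%) had control shares of 0.426% and 0.0657%, from MiSeq control counts of 100 and 0. G4227 was not called in the oxidized libraries (-0.25, 0.154% against 0.184%, edgeR adjusted p = 0.355), and its control shares were 0.367% and 0.0476%, from MiSeq control counts of 0 and 50. The lowest NextSeq control shares at G4227 (0.191%) and G4498 (0.253%) lay below a MiSeq floor, so the control order there was not detectable at this depth. Under TMM and RLE scaling of the oxidized libraries, A397, G3791, G4227 and G4498 turned to higher in NextSeq.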

How the results depend on the processing

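The counts of known sites called higher in NextSeq and higher in MiSeq, 19 and 49, became 93 and 3 under TMM, 90 and 3 under RLE size factors, 33 and 39 with total counts of all positions, 42 and 32 without the 2 highest sites, 8 and 32 by DESeq2's Wald test, 12 and 44 by the likelihood ratio test, 16 and 48 with NextSeq replicates 2 and 3 averaged, and 0 and 0 with the MiSeq replicates averaged as well. Leaving out each library in turn gave 12 to 21 higher in NextSeq and 39 to 48 higher in MiSeq, with the lowest counts, 12 and 39, without MiSeq replicates 1 and 2 in turn. Over all 5147 positions, the main fit called 30 and 1176, TMM 286 and 91, and RLE 266 and 106. DESeq2's Wald test called 185 and 2243 of these positions, and the likelihood ratio test 213 and 2032. By the Wald test, the part called higher in MiSeq was thus smaller at known sites than over all positions. By the likelihood ratio test the parts were similar. The fit with the replicate block called 7 and 25 known sites, and 7 and 119 of all positions. Same-numbered libraries 1 and 2 did not deviate together (Pearson's r -0.08 over 100 sites), so they share only a number and the samples were not taken as paired.

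For single values, given as NextSeq minus MiSeq in percentage points, the 18S share of 20.7 became -3.20 without the highest site and 2.42 without the 2 highest. The share at the highest site, 27.5, became 29.3 at the next highest when it was left out, and -3.50 with 2 left out. The share at the 10 highest sites, 23.9, became 11.7 and -5.31. The known-site share of all counts, 35.7, became 33.0 with 1 neighbouring position summed on each side and 35.4 in steps of 50. Leaving out each library gave 20.1 to 21.7 for 18S, 27.2 to 27.7 for the highest site, 22.3 to 24.6 for the 10 highest and 35.7 to 35.9 for the known sites.

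Among differences at single sites that were called at the main scaling or under the alternative, signs turned as follows (log2 difference under TMM, then RLE): G1447 4.04 and 3.86, A397 0.40 and 0.22, A2400 4.17 and 3.99, C2421 0.91 and 0.73, A3759 0.29 and 0.11, A3784 2.35 and 2.17, G3791 2.48 and 2.30, U3924 1.07 and 0.89, G3943 4.15 and 3.97, G4227 3.93 and 3.75, U4305 3.02 and 2.85, G4498 3.11 and 2.93, C4535 3.74 and 3.56, A4570 0.53 and 0.35, G4636 0.62 and 0.44, A904 1.07 and 0.89. Without the 2 highest sites, G1447 (0.84), A2400 (0.98), G3943 (0.96), G4227 (0.75) and C4535 (0.56) turned. Without the highest site, A2400 (0.46), G3943 (0.45) and C4535 (0.038) did, and with total counts A2400 (0.66), G3943 (0.65) and C4535 (0.23). Within the same rRNA, G867 (-0.98) and G3943 (0.40) turned, and U4497 (-0.98) did with neighbouring positions summed. Differences called in neither fit also changed sign under at least 1 alternative, the leaving out of a library included, at G867, G1447, U1668, C2291, A2400, A3719, G3943, G4227 and U4497. With similar replicates of both experiments averaged, all 32 named positions called at the main setting lost their call. Named positions also kept their sign but lost their call under other alternatives (edgeR adjusted p unless stated). TMM and RLE did so at A2362 (0.471 and 0.394) and C2737 (0.0694 and 0.0614), scaling within the same rRNA at G683 (0.113), C4535 (0.822), U1803 and C1802, and total counts at G4498 (0.0766). Leaving out the 2 highest sites did so at U4305 (0.136) and G4498 (0.567), and summing neighbouring positions at U4226 (0.0921). By DESeq2's Wald test it was G3791 (0.0568), A3829 (0.141), U4305 (0.184), G4498 (0.21), C4535 (0.59), U1803, C1802 and U3789, and by the likelihood ratio test C4535 (0.332), U1803 and U3789. The replicate block did so at G683 (0.0758), A2362 (0.0995), A2814 (0.0575), U3817 (0.0707), G4498 (0.0664), C4535 (0.0756), C2737 (0.107), U1803, C1802 and U3789. A2362 lost its call without NextSeq replicate 2, MiSeq replicate 1 or MiSeq replicate 2 (0.0570, 0.0703 and 0.0710), U3817 without MiSeq replicate 1 (0.0527), and C2737 without any one library other than NextSeq replicate 1 (0.0710 to 0.0903). U1803 lost it without any one of the 5 libraries, C1802 without any other than MiSeq replicate 2, and U3789 without any other than NextSeq replicate 1, as well as with no filter. U1803, C1802 and U3789 lost it with NextSeq replicates 2 and 3 averaged. The divisor fixes the turns that came with a change of scaling, and the cause of the other changes was not tested.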
